A study of Rattus norvegicus with 2 samples.

Results

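The genes of cholesterol synthesis and its regulators were examined on 2 arrays of urinary bladder RNA from male F344 rats, with 1 array per group. One array read pooled RNA of 7 rats that drank water with 200 ppm dimethylarsinic acid (DMA) over 4 weeks, and the other read pooled RNA of 7 control rats on 0 ppm. DMA is a methylated metabolite of inorganic arsenic. Per the labels, the rats were 6 weeks old at the start and 10 weeks old at sampling, and the tissue was urinary bladder. The methods of the study describe older rats and epithelial cells swirled off the inverted bladder, so the sources do not settle how much of the bladder wall each pool held. A list of 29 genes was followed by symbol, made up of 20 enzymes of the pathway and 9 genes of its control and of sterol transport. Probe groups that carried exactly 1 of these symbols were found for 28 of the 29 genes, among 22093 genes with such a group, and the brightest group stood for its gene. Hmgcs1, the synthase that makes the precursor of mevalonate, had no signal analysed here, and only its promoter sequence was examined.

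Cells build cholesterol from acetyl-CoA through mevalonate, prenyl diphosphates, squalene and lanosterol. The transcription factors SREBP-1 and SREBP-2, encoded by Srebf1 and Srebf2, switch on the enzymes when membranes of the endoplasmic reticulum run low in sterol. Scap carries SREBP to the Golgi for activation, and the Insig proteins hold Scap back when sterol is plentiful. The liver X receptors, Nr1h2 and Nr1h3, sense oxidised sterols and favour export. In the bladder the pathway is of interest because the apical membrane of umbrella cells, the surface layer of the urothelium, is rich in cholesterol.

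The synthesis enzymes lay slightly above the control pool as a group, while the genes of control and transport had a median near 0 and lay on both sides of it. Of the 19 enzymes found, 16 had a higher signal in the DMA pool than in the control pool, against 55.9% of all 22093 genes. The median log2 ratio of the 17 enzymes past the signal minimum was 0.21, or 1.16-fold (quartiles 0.12 and 0.33). Idi1 stood highest at 1.69-fold, followed by Cyp51 at 1.44-fold, Sc5d at 1.38-fold and Hsd17b7 at 1.37-fold. The 9 genes of control and transport had a median log2 ratio of 0.00, with 5 above 0 and 4 below. With 1 array per group these differences have no error and no test, so each is a difference between 2 pools.

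A gene counted as measured when the geometric mean of its 2 signals reached 100, as it did for 26 of the 28 genes found and for 11478 genes in all. The bounds for a call were a ratio of 2 and a Z score of 2 for a higher signal, and a ratio of 0.5 and a Z score of -2 for a lower one, where Z places a log2 ratio among the 500 genes nearest in mean signal. By this rule 0 of the 26 genes were called higher and 0 lower, against 0.314% and 1.43% of all measured genes. At a bound of 1.5-fold, 1 of the 26 genes was higher, namely Idi1, against 1.09% of all measured genes, and 0 were lower, against 5.37%. A log2 ratio above 0 was found for 14 of 17 measured enzymes and 19 of 26 measured genes of the list, against 41% of all measured genes. In the span of mean signal that the 26 genes covered lay 8337 measured genes, with 40.3% above 0 and a median log2 ratio of -0.04. Over all 22093 genes, dim ones included, the share above 0 was 55.9%, so this share depends on the signal minimum.

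**Figure D1:**
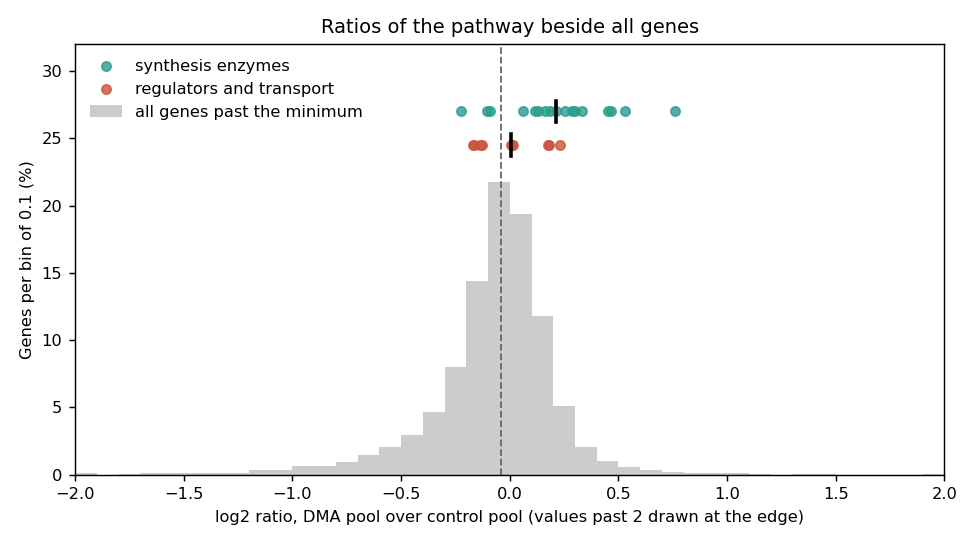
Percentage of all 11478 measured genes in each bin of 0.1 of the log2 ratio of the DMA pool over the control pool (grey bars), with the 17 measured enzymes and the 9 genes of control and transport as points and their medians as black strokes; the dashed line is the median of all genes. The enzymes centre on 0.21 and the other genes on 0.00, against -0.04 for all genes.

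Genes of this pathway share known regulators, and promoter sequences are shown for the 4 genes with the highest ratios and for Srebf2. The log2 ratio of Srebf2 was 0.02, so its ratio is no reason to show it. Its promoter is 1 of the 2 that held the short sterol regulatory element described below, and the other, that of Msmo1, is not shown. Whether these promoters respond to the shared regulators was not tested. Promoters of 300 bases, from 250 before to 50 after the start of the gene, were matched in RefSeq (GRCr8) for 25 of the 29 genes, with both start sites of Srebf1, which gave 26 promoters. Capitals mark CCAAT or its reverse complement ATTGG, the letters bound by NF-Y, a factor that works with SREBP, and the letters TCACNCCA of a short sterol regulatory element on either strand. All runs are printed 5′ to 3′ on the strand of the gene.
Idi1, chr17:66547475-66547774, minus strand: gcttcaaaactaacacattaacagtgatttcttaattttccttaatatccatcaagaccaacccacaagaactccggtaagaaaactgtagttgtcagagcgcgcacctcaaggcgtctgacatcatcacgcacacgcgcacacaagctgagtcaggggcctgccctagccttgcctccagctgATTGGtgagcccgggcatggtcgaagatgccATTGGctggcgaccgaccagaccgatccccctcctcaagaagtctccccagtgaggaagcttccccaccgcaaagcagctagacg
Cyp51, chr4:30991443-30991742, plus strand: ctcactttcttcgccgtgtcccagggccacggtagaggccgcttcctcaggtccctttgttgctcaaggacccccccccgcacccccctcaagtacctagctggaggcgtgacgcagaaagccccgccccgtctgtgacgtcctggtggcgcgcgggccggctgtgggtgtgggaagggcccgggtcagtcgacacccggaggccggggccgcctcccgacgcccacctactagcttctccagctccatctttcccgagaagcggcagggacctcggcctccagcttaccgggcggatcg
Sc5d, chr8:51538228-51538527, minus strand: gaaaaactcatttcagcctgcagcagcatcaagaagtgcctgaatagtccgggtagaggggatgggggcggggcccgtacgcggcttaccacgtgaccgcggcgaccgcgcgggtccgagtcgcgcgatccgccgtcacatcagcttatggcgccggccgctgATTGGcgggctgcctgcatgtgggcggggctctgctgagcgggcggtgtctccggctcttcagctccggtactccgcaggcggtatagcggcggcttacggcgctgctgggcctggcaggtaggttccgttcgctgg
Hsd17b7, chr13:84722705-84723004, minus strand: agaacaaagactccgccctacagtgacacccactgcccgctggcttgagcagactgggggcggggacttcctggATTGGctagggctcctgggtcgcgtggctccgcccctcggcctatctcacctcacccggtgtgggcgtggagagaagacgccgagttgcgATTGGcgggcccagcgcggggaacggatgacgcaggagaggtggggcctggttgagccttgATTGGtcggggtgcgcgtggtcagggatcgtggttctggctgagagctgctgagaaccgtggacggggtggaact
Srebf2, chr7:115543057-115543356, plus strand: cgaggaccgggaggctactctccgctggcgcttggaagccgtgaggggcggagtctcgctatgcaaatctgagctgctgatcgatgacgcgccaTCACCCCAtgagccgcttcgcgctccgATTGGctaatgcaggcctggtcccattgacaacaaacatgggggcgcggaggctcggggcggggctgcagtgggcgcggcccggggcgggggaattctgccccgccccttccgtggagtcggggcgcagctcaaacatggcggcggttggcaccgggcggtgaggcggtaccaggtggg

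CCAAT letters were present on either strand in 14 of 17 enzyme promoters (82.4%) and in 6 of 9 promoters of the control and transport genes (66.7%), against 36.9% of 9829 promoters of measured genes and 37.5% of all 33469 promoters. No promoter was matched for Fdft1, Sqle, Pmvk and Stard4. The 17 enzyme promoters are therefore not those of the 17 measured enzymes, since they include Hmgcs1 and Mvd and lack Fdft1 and Sqle. With positions counted from the start site as 0, Idi1 had matches at -66 to -62 and at -35 to -31, and Sc5d had 1 at -87 to -83. Hsd17b7 had 3 matches, at -176, -86 and -25, Nsdhl and Mvk had 5 each, and Cyp51, with the second highest ratio of the list, had 0. The letters TCACNCCAC of a fuller sterol regulatory element were in 0 of the 26 promoters, against 1.10% of promoters of measured genes. At so low a share, 0 among 26 promoters says little. The search took exact letters only, so it cannot show that these promoters lack sterol regulatory elements. The shorter letters TCACNCCA, which contain no CCAAT and were searched after the sequences had been seen, were in the promoters of Srebf2 and Msmo1, against 3.28% of promoters of measured genes. GC boxes (GGGCGG on either strand) were in 14 of the 17 enzyme promoters (82.4%) and in 6 of the 9 promoters of the control and transport genes (66.7%), against 60.6% of promoters of measured genes and 33.1% of all promoters. These matches describe letters within this window and show no binding.

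In the mevalonate arm, which leads to the prenyl diphosphates, Idi1 stood apart from the other enzymes. Idi1, the isomerase that makes dimethylallyl diphosphate from isopentenyl diphosphate, had a signal of 2034 in the DMA pool and 1200.2 in the control pool, a log2 ratio of 0.76 and a Z score of 2.32. It passed the Z bound and not the bound on the ratio, and it stood at percentile 99.4 of the measured genes. Mvk, the kinase that acts on mevalonate, had signals of 208 in the DMA pool and 179 in the control pool (log2 ratio 0.21). Acat2, the cytosolic thiolase at the entry of the pathway, had 1027 in the DMA pool and 919 in the control pool (0.16). These are small steps beside that of Idi1. Fdps, which joins the isoprene units to farnesyl diphosphate, had 324 in the DMA pool and 296 in the control pool (0.13). Ggps1, which extends farnesyl diphosphate for protein prenylation, was the member of this arm below 0, with 387 in the DMA pool and 416 in the control pool (-0.10). Pmvk and Mvd, the second kinase and the decarboxylase, were under the signal minimum in both pools. Pmvk had 90.3 in the DMA pool and 83.9 in the control pool, and Mvd had 94.2 and 82.7 in the same order, so both lay on the side of the other enzymes at log2 ratios of 0.11 and 0.19.

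**Figure D2:**
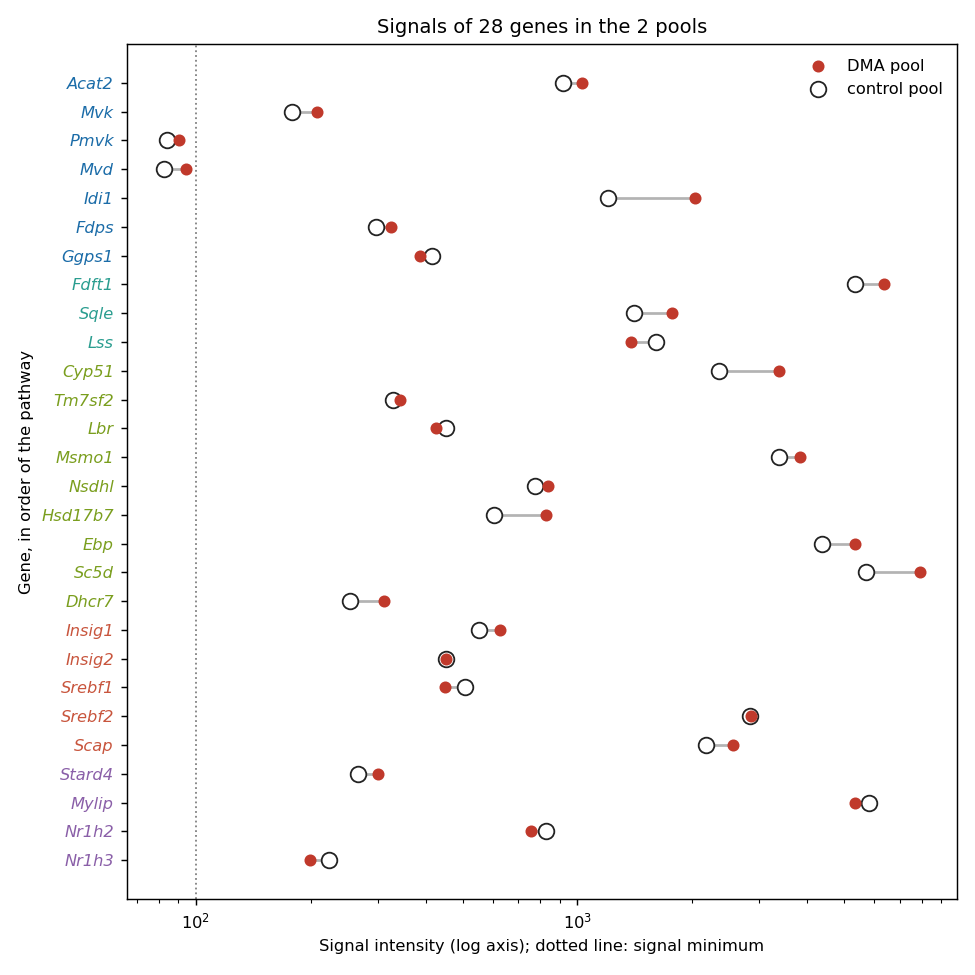
Signal intensity (log axis) of the 28 genes in the DMA pool (filled red) and the control pool (open), 1 array each, in the order of the pathway, with the signal minimum of 100 as a dotted line. The widest gap is that of Idi1, 2034 in the DMA pool against 1200.2 in the control pool, and Insig2 and Srebf2 overlap; levels of different genes are not comparable with each other.

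Between farnesyl diphosphate and lanosterol, 2 of the 3 enzymes lay above the control pool and Lss had no settled direction. Fdft1, squalene synthase, the first enzyme committed to sterols, had 6357 in the DMA pool and 5337 in the control pool (log2 ratio 0.25). Sqle, squalene epoxidase, an oxygen-requiring and tightly regulated step, had 1768 in the DMA pool and 1404 in the control pool (0.33). Both enzymes lay above the control pool, by less than the 1.5-fold bound. Lss, lanosterol synthase, was read by 2 probe groups that disagreed. The brighter one gave 1379 in the DMA pool and 1610 in the control pool (-0.22), and the other gave 1202 in the DMA pool and 1067 in the control pool (0.17). The mean of the 2 groups was -0.03, so no direction can be given for Lss.

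The steps from lanosterol to cholesterol had the highest median of the 5 groups by role, 0.28 on the log2 scale (1.22-fold), with 8 of 9 enzymes above 0. Cyp51, the cytochrome P450 that demethylates lanosterol, had 3385 in the DMA pool and 2347 in the control pool (log2 ratio 0.53, Z score 1.96), just inside both the 1.5-fold bound and the Z bound. Sc5d, the desaturase that makes the precursor of cholesterol and vitamin D, had 7893 in the DMA pool and 5719 in the control pool (0.46). Hsd17b7, which reduces the keto group left by demethylation, had 825 in the DMA pool and 603 in the control pool (0.45). These genes followed Idi1 in size of ratio among all genes of the list, at percentiles 98.6, 98.1 and 98.0 of the measured genes. Dhcr7, the reductase of the last step of one branch, had 312 in the DMA pool and 254 in the control pool (0.30). Ebp, the sterol isomerase, had 5340 in the DMA pool and 4384 in the control pool (0.28). Msmo1, the methyl sterol oxidase that precedes Nsdhl, had 3834 in the DMA pool and 3370 in the control pool (0.19). The decarboxylating dehydrogenase Nsdhl came next, with 837 in the DMA pool and 772 in the control pool (0.12).

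The pair of sterol reductases that follow Cyp51 lay close to 0. Tm7sf2 had 343 in the DMA pool and 329 in the control pool (log2 ratio 0.06). Lbr, which shares this activity and also anchors chromatin at the nuclear envelope, had 425 in the DMA pool and 453 in the control pool (-0.09). Lbr was the single enzyme of this stretch below 0.

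**Figure D3:**
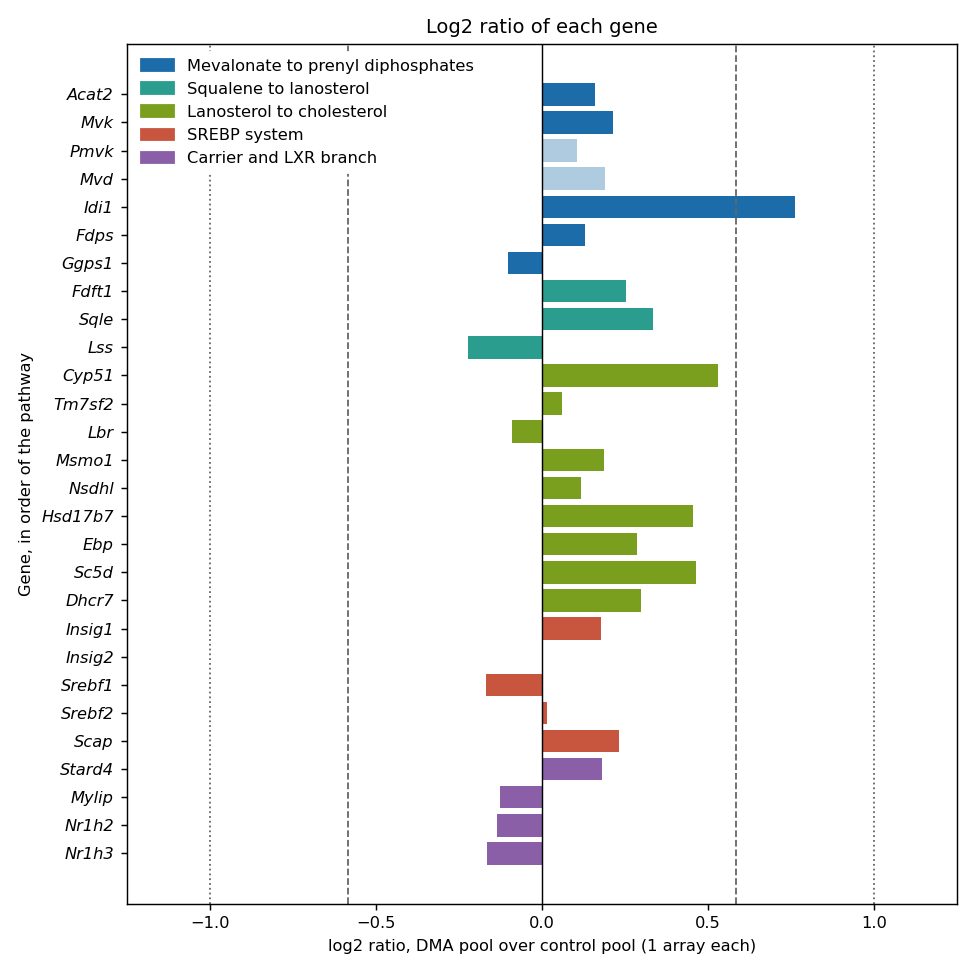
Log2 ratio of the DMA pool over the control pool for the 28 genes in the order of the pathway, coloured by role, with pale bars for Pmvk and Mvd, which were under the signal minimum. Dashed lines mark 1.5-fold and dotted lines 2-fold; Idi1 alone passes the dashed line, at 0.76, and no bar reaches the dotted lines.

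The genes of the SREBP system had a median near 0, while Insig1 and Scap lay between the quartiles of the enzymes. Srebf2, which encodes the SREBP most tied to cholesterol synthesis, had 2857 in the DMA pool and 2826 in the control pool (log2 ratio 0.02). Srebf1, whose product acts more on fatty acid synthesis, had 450.3 in the DMA pool and 507 in the control pool (-0.17). Neither transcript followed the enzymes in direction and size. Insig2 had 453 in the DMA pool and 452 in the control pool (0.00). Insig1, itself a target of SREBP, had 625 in the DMA pool and 553 in the control pool (0.18). Scap had 2551 in the DMA pool and 2174 in the control pool (0.23), the highest ratio among the genes of control and transport. Percentiles among the measured genes were 92.4 for Scap, 88.3 for Insig1, 62.4 for Srebf2, 59.9 for Insig2 and 26.4 for Srebf1. The median of the 5 genes was 0.02, and transcript levels say nothing about how much SREBP was cleaved.

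Of the sterol carrier and the liver X receptor branch, the carrier lay above 0 and the other genes below. Stard4, a sterol carrier induced by SREBP-2, had 300.3 in the DMA pool and 265 in the control pool (log2 ratio 0.18). Mylip, a ubiquitin ligase induced by liver X receptors that marks lipoprotein receptors for breakdown, had 5335 in the DMA pool and 5826 in the control pool (-0.13). Nr1h2 had 754 in the DMA pool and 828 in the control pool (-0.14). Nr1h3 had 199.5 in the DMA pool and 224 in the control pool (-0.17). The values of Mylip and both receptors lay between percentiles 26.9 and 32.8 of the measured genes, well inside the bulk of the distribution.

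Genes next to the pathway were read from lists of their own, with all ratios as log2 of DMA over control. In fatty acid synthesis and desaturation, a second set of SREBP targets, 19 of 21 genes were measured. Of these, 12 were above 0, 0 were called higher and 1 was called lower, with a median of 0.13. Of all measured genes, 41% were above 0, 0.314% were called higher and 1.43% lower. The gene called lower was Scd, a stearoyl-CoA desaturase that makes oleate, with 155 in the DMA pool and 416 in the control pool, a 2.69-fold lower signal. Elovl1, an elongase of very long fatty acids, was at 0.61, its relative Elovl7 at 0.54 and the malic enzyme Me1, which supplies NADPH, at 0.51, while Scd2, the desaturase next to Scd, was at -0.48. These examples were picked for the size of their ratios.

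Among 11 electron donors and accessory proteins of sterol synthesis, 10 were measured, with a median of -0.08. Of these, 0 were called higher and 1 was called lower, against 0.314% and 1.43% of all measured genes. Scp2, a sterol carrier and peroxisomal thiolase, was the called gene, with 2074 in the DMA pool and 5515 in the control pool (2.66-fold lower). A second probe group of Scp2 gave 1432 in the DMA pool and 1429 in the control pool (log2 ratio 0.00), so the call rests on 1 of 2 groups. Pgrmc1, a haem protein that binds Cyp51, was at 0.27, Erg28 at -0.20 and Faxdc2 at -0.19.

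No gene was called in the remaining lists of the pathway, that is, 0 of 13 measured genes of SREBP processing and sterol-regulated degradation, 0 of 16 of sterol uptake and transport, 0 of 11 of sterol storage, efflux and liver X receptor targets, 0 of 17 of the prenylation, dolichol and ubiquinone branches and 0 of 3 of ketone body metabolism. Their median log2 ratios were 0.07, 0.02, -0.06, 0.02 and -0.17 in the same order. Calls were as rare as 0.314% higher and 1.43% lower among all measured genes, so 0 calls in lists of this size say little. In the storage and efflux list, the oxysterol hydroxylase Cyp7b1 was at -0.83 with 129 in the DMA pool and 229 in the control pool, and the sterol transporter subunit Abcg5 was at -0.72 with 125 and 206 in the same order. The lipid carrier Apoe was at -0.58 and the sphingomyelinase-like Smpdl3a at -0.33. In the uptake list, the caveolar protein Cav1 was at -0.58, the endocytic receptor Lrp1 at -0.39, the lysosomal lipase Lipa at 0.25 and the sterol-binding protein Osbp at 0.24. Among the prenylation, dolichol and ubiquinone genes the largest ratios were those of Nus1 (0.28), Fnta (0.23), Rce1 (0.18) and Pdss1 (-0.18). In the processing list, Erlin2 was at -0.26, Usp20 at 0.25, the protease gene Mbtps1 at -0.20 and the ubiquitin ligase gene Syvn1 at -0.14. Of the ketone body genes, Oxct1 was at -0.41, Bdh1 at 0.23 and Acat1, the mitochondrial relative of Acat2, at -0.17.

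**Figure D4:**
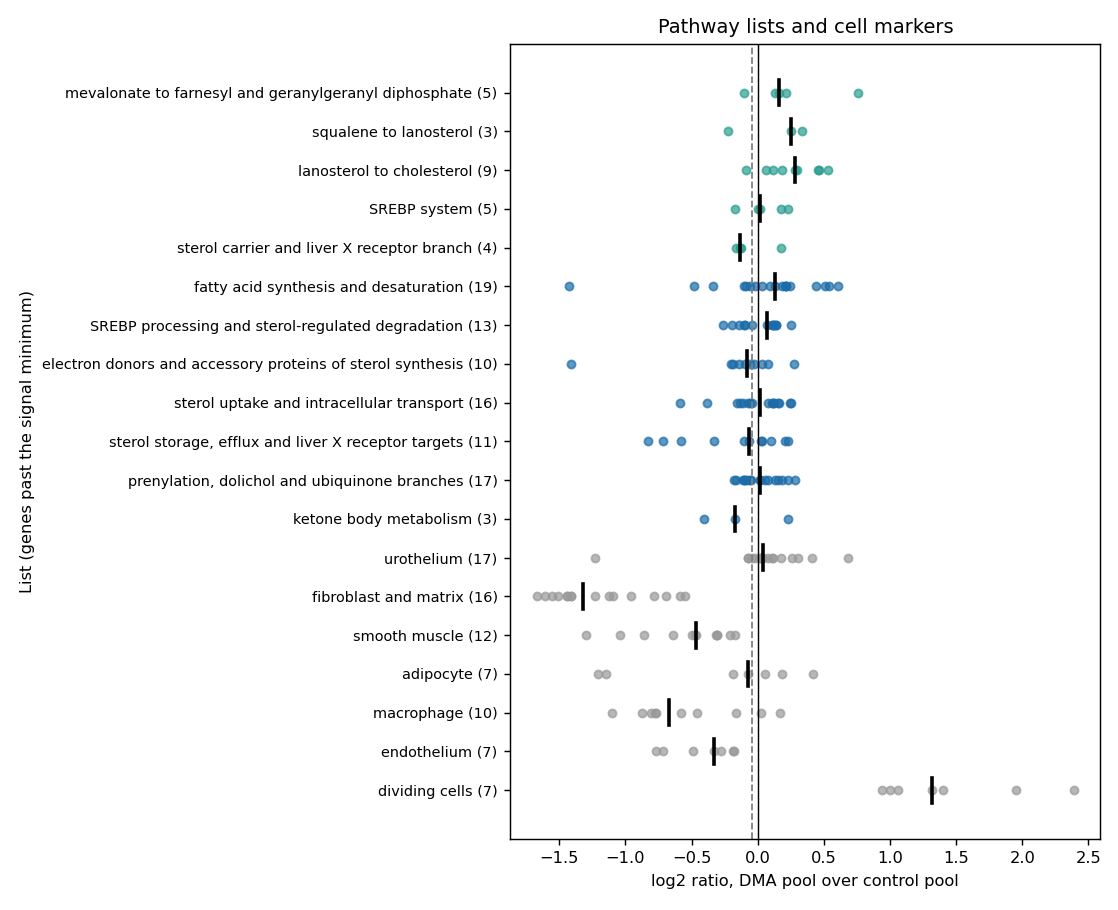
Log2 ratio of the DMA pool over the control pool for each measured gene of the 5 groups by role (green), 7 further lists of the pathway (blue) and 7 marker lists (grey), with the number of measured genes in brackets, the median of each list as a black stroke and the median of all genes as a dashed line. The medians of the 3 enzyme groups lie between 0.16 and 0.28, and fibroblast and matrix markers lie at -1.32.

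Markers of other cell types also differed between the pools. The counts below stand beside 0.314% of all measured genes called higher and 1.43% called lower. Above 0 lay 41% of all measured genes, and 55.9% of all genes found. Fibroblast and matrix markers were called lower for 11 of 16 genes and lay below 0 for 16 of 16, with a signal of 225867 summed over the list (here and for the lists that follow, over all genes found) in the DMA pool and 469543 in the control pool, and the lowest were Ogn (-1.67) and Mfap5 (-1.61). Smooth muscle markers had 2 of 12 called lower and 12 of 12 below 0, with a median of -0.47. The lowest were Hspb6 (-1.30) and Kcnmb1 (-1.04), and the summed signal was 576753 in the DMA pool and 750608 in the control pool. Macrophage markers had 1 of 10 called lower, with a median of -0.67. Their summed signal was 6877 in the DMA pool and 9080.1 in the control pool. The lowest were Fcgr2b (-1.10) and Csf1r (-0.88). Of the 10 macrophage markers, 8 were below 0 and 2 above, C1qa (0.03) and C1qc (0.17). Endothelial markers had 0 of 7 called lower and 7 of 7 below 0, with a median of -0.33. The lowest were Kdr (-0.77) and Plvap (-0.72), and the summed signal was 5109.9 in the DMA pool and 6630.4 in the control pool. Adipocyte markers, which matter here because fat cells make and store lipid, had 2 of 7 called lower, Adipoq (-1.20) and Lpl (-1.15), with a median of -0.07. Their sum over all 10 genes found, 28112 in the DMA pool and 23404 in the control pool, was mostly that of Fabp4 (24949 in the DMA pool and 18669.8 in the control pool). Without Fabp4, left out after the values had been seen, it was 3163 in the DMA pool and 4734 in the control pool. That fall lay in Lpl (1030 in the DMA pool and 2284 in the control pool) and Adipoq (262 and 602 in the same order). Of the 10 adipocyte genes found, 5 were above 0 and 5 below. Urothelial markers had 1 of 17 called lower, Krt20 (-1.23), with Krt18 at 0.68 and a median of 0.04. Of the 17, 12 were above 0 and 5 below. The uroplakin genes Upk1a and Upk2, with the highest signals of this list, gave 478998 and 561252 in the DMA pool. Their signals in the control pool were 470635 and 544597. Markers of dividing cells were above 0 for 16 of 16 genes found, and 6 of 7 measured ones were called higher, led by Mki67 (2.39) and Top2a (1.95), with a summed signal of 2949 in the DMA pool and 1189 in the control pool. Relative to the median of the urothelial markers, a scaling chosen after the values had been seen that subtracts the same constant from every gene and so does not address cell make-up, 14 of 17 enzymes were above 0 (median 0.17), against 32.1% of all measured genes. In RNA of a tissue, fewer cells of a type and less RNA per cell cannot be told apart. The part of cell make-up and of cell division in the ratios of the enzymes was not tested.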

How the data were processed

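RNA was measured on 2 arrays, 1 for a pool of 7 DMA-treated rats and 1 for a pool of 7 control rats, grouped by the labels. The authors deposited 1 linear signal intensity for each transcript cluster, a group of probes along a transcript. The submitters' processing notes name Expression Console 1.4.1 and RMA, which subtracts background and brings the distributions of arrays together. RMA can narrow ratios of dim genes and would remove a shift shared by most genes. The log2 of 100% of values had 6 decimals within rounding, so log2 was taken of them. The array named in the methods of the study differs from that of the file, and the genome build behind the clusters was not given in the sources used here. The median normalization and removal of signals under 100 named in the methods had not been applied to this table, whose medians were 53.2 (DMA) and 49.7 (control).

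Of 68842 clusters, 23446 had 1 symbol, updated through gene identifiers to GRCr8 for 22077. Each gene was read from its cluster of highest mean signal on the log2 scale. The bounds on ratio and Z followed the methods of the study, while the genes behind Z and the minimum on the geometric mean were set here. The members and lists were chosen with earlier results of these data known. All members were named. Of the other pathway lists, called genes and up to 4 with the largest ratios in either direction were named. Of each marker list up to 2 were named by size of ratio, so not every called marker is named. Fabp4, Upk1a, Upk2, C1qa and C1qc were named outside this rule. Steps ran in Python 3.11.15 with pandas 2.3.3, NumPy 2.4.6 and statsmodels 0.14.6. Only the Z score and the rule for calls were tested on simulated data, with normally distributed log2 ratios. That test does not cover the other steps. With 1 array per group, the number of arrays limits the precision, and no p-value or SE was possible. Alternatives concerned the signal minimum, the scaling, the cluster of a gene and the genes behind Z.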

Additional observations from a re-analysis of the deposited data

Results flagged for a closer look

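The second probe group of Lss was outside the gene comparison, which used the brightest group per gene, and its signal was higher in the DMA pool than in the control pool (1202 and 1067, a log2 ratio of 0.17), whereas the group used was lower (1379 and 1610, -0.22). Which of the 2 groups reads the lanosterol synthase transcript better was not tested. With 1 array per group, no sample could be compared with others of its group.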

How the results depend on the processing

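No gene of cholesterol synthesis or of its control was called under any of 9 alternatives, 7 planned and 2 added after the data had been seen, and Idi1 was the 1 gene past 1.5-fold in each. The median of the enzymes ranged from 0.17 to 0.25 on the log2 scale, and 14 to 16 of them were above 0. Of 208 values of single members under the alternatives, 206 lay within 0.1 of the value given, and 3 had another sign, namely those of Lss with its dimmer probe group (0.17) and of Insig2 (-0.04) and Srebf2 (-0.03) relative to urothelial markers. Most of these values could not have moved further. A change of the signal minimum leaves a ratio as it is, and centring takes a constant under 0.1 from every gene. The choice of probe group could alter Lss alone. The 206 values are therefore no measure of how stable the ratios are. The medians of the control and transport genes (-0.04), of the SREBP system (-0.03) and of the prenylation list (-0.03) also went below 0 relative to urothelial markers. The median of sterol uptake and transport was -0.04 with no signal minimum, -0.05 with the mean over probe groups, -0.03 relative to urothelial markers and -0.07 with the dimmest probe group. That of sterol storage and efflux was 0.00 with no signal minimum. Scp2 was not called with the mean over its probe groups (-0.70) and was at 0.0024 with the dimmest, so that 0 of the electron donors and accessory proteins were called under both. This follows from its 2 probe groups. Over all genes, 62 were called higher with no signal minimum and 19 when both signals had to reach 100, against 36. No paired analysis was possible because each group had 1 array. No replicate could be left out for the same reason. Dim genes such as Pmvk and Mvd are limited by their signal.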
